A study of Mus musculus with 18 samples.

Results

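Nfam1, Dab2ip, Clasrp and Zfp706 are 4 protein-coding genes of 21887 in the mouse whose surroundings carried more H3K27ac in Mettl3 knockout embryonic stem cells than in Control cells. The 4 genes were chosen for gains of distal H3K27ac peaks, that is, away from gene starts. H3K27ac values in knockout and Control cells are therefore given here as a description, without a test. H3K4me3 was measured in separate libraries that did not enter the choice, and it was tested. The locus of each gene is its RefSeq gene body with 50 kb added on each side. Across all loci together lay 95 of 77139 H3K27ac regions and 122 of 105246 H3K4me3 regions, where a region is the union of overlapping peaks of the 6 libraries of a mark.

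The study compared mouse embryonic stem cells of 3 genotypes, all of strain C57BL/6: the knockouts Mettl3_KO1 and Mettl3_KO2, and Mettl3_Control. The Mettl3 protein is the catalytic part of the complex that places N6-methyladenosine on RNA. All cells were grown with LIF and with CHIR99021 and PD0325901, inhibitors of GSK3 and MEK that hold the cells in naive pluripotency. The labels give neither the position of the deletion nor whether a knockout line is 1 clone. They do not say whether replicates came from separate cultures, and the p-values below rest on the spread of replicate libraries that may be technical repeats. Each genotype and mark had 2 libraries, hence 12 peak lists on mm10. Depth is unknown, because the lists give no read totals.

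H3K27ac is an acetyl mark of histone H3 found at active promoters and enhancers, and H3K4me3 is a methyl mark found mainly at promoters and, at lower levels, at some active enhancers. Nfam1 encodes a membrane receptor of immune cells with an ITAM, a cytoplasmic motif that recruits Syk-family kinases, and it feeds into NFAT and B-cell signalling. Dab2ip encodes a Ras GTPase-activating protein, which switches Ras off. Clasrp encodes an arginine- and serine-rich protein that associates with the splicing kinase CLK4. Zfp706 encodes a small zinc finger protein that has been linked to the exit of mouse embryonic stem cells from self-renewal.

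The whole series set the scale for each locus. H3K27ac lists covered 17.5 to 19.6 Mb in KO1, 35.5 to 37 Mb in KO2 and 14.4 to 14.6 Mb in Control. H3K4me3 lists covered 45.2 to 46.6 Mb in KO1, 41.7 to 50 Mb in KO2 and 56.3 to 58.2 Mb in Control. Covered H3K27ac on the autosomes was 1.27 times Control in KO1 and 2.49 times Control in KO2. It was 1.32 and 2.52 times on chromosome 15, which holds Nfam1 and Zfp706, 1.29 and 2.54 times on chromosome 2, which holds Dab2ip, and 1.39 and 2.96 times on chromosome 7, which holds Clasrp. H3K4me3 length was 0.798 times Control in both lines on the autosomes, and 0.848 times in KO1 and 0.897 times in KO2 on chromosome 7. It was 0.792 and 0.754 times on chromosome 15, and 0.805 and 0.773 times on chromosome 2. Of 14 embryonic stem cell marker genes, 13 or 14 had at least 5% of their promoter window under H3K4me3 peaks in every library. No fibroblast marker of 10 reached 5% for H3K27ac in any library. For H3K4me3, 3 to 5 of the 10 did. The 4-kb promoter window of Mettl3 itself was covered by H3K4me3 peaks over 37.9% and 41.5% in KO1 and 48% and 44.1% in KO2, against 65.4% and 64.2% in Control, and peaks at a start do not show whether the gene is deleted.

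Promoter sequences are shown because the starts differ in CpG content. That the gains of H3K27ac lay mostly away from the starts follows from the choice of genes by distal peaks. The RefSeq promoter table (GRCm38.p6, the assembly of mm10) holds 3 of the 4 genes. Each line gives 250 bases before to 50 bases after a start, 5′ to 3′ in the direction of transcription, with CG dinucleotides in capitals. The Nfam1 line is its first start (minus strand), which is head to head with the start of the long noncoding RNA gene Gm32620. The upper Dab2ip line (plus strand) is the main start, that with the most H3K4me3 when the Control mean and the knockout mean have equal weight. The lower Dab2ip line is an internal start that lay within a region acetylated in both KO2 libraries. The Clasrp line (minus strand) is the start inside a region acetylated in all 6 libraries.
Nfam1 chr15:83033348-83033647: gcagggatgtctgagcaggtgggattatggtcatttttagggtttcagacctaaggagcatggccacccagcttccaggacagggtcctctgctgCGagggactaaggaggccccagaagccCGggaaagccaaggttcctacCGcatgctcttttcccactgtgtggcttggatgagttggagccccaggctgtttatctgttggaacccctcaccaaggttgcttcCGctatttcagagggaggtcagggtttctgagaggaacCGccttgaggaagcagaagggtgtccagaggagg
Dab2ip chr2:35582590-35582889: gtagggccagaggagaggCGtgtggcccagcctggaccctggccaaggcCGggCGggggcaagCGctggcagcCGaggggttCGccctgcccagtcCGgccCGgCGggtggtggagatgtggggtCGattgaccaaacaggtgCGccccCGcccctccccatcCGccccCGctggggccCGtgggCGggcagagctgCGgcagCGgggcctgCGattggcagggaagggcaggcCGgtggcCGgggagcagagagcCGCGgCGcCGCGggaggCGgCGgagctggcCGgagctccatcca
Dab2ip chr2:35691744-35692043: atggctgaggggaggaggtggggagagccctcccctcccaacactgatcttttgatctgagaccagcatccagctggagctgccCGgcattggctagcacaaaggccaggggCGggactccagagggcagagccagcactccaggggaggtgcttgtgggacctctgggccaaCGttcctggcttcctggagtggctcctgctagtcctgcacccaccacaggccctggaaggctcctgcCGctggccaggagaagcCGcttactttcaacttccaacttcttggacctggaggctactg
Clasrp chr7:19604312-19604611: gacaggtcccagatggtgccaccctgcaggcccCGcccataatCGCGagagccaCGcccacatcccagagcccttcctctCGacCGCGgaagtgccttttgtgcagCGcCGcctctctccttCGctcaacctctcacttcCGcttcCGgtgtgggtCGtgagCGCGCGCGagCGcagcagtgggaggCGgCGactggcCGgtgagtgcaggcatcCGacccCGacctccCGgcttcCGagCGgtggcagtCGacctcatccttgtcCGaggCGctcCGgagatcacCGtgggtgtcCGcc
The Nfam1 start and the internal Dab2ip start each held 5 CG pairs, and 62% of the 32851 promoters in the table held as many or more. The main Dab2ip start held 29, reached by 12.9% of promoters, and the Clasrp start held 32, reached by 9.5%. The median promoter held 7.

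Distal H3K27ac is the number of bases under peaks in a locus after 2.5 kb on each side of every start and end of a protein-coding gene is left out. At Nfam1 it was 2444 and 2061 bp in KO1 and 14399 and 13534 bp in KO2, against 179 and 249 bp in Control. Both KO1 libraries exceeded both Control libraries, and both KO2 libraries exceeded all others. The means were 2252 ± 271 bp in KO1, 13970 ± 612 bp in KO2 and 214 ± 49.5 bp in Control (SD, n = 2 each), or 10.5 and 65.3 times Control in KO1 and KO2. In these bulk libraries a mark present in more cells and a stronger mark in each cell cannot be told apart.

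At Dab2ip distal H3K27ac was 1641 and 1917 bp in KO1 and 8131 and 7112 bp in KO2, against 0 and 177 bp in Control. At Clasrp it was 1526 and 1785 bp in KO1 and 7352 and 6073 bp in KO2, and it was listed at 0 in both Control libraries. At Zfp706 it was 4353 and 2957 bp in KO1 and 6761 and 6501 bp in KO2, against 153 and 332 bp in Control. At all 4 genes KO2 lay above KO1 and KO1 above Control without overlap, in the mark they were chosen by. Of 6114 genes fitted for distal H3K27ac, 4653 were called higher in KO2 than in KO1 (limma, adjusted p under 0.05). In KO1 against Control 2028 were called higher. The share of all genes with the same order was not counted. The steps differed between the genes. KO2 held 86.1 times Control at Dab2ip, 65.3 times at Nfam1 and 27.3 times at Zfp706. KO1 held 20.1, 10.5 and 15.1 times Control in the same order.

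The fit over all genes gives the background of these differences. It covered the 6114 protein-coding genes that averaged 1000 bp or more, on the scale log2(bp + 500), which understates the change of low values. For both lines together against Control, distal H3K27ac passed as higher at 78.1% of genes (limma, Benjamini-Hochberg adjusted p under 0.05), with a median difference of 0.79. The 4 genes ranked 1 (Nfam1, 3.14), 3 (Clasrp, 2.98), 6 (Dab2ip, 2.88) and 7 (Zfp706, 2.87) from the highest on this scale, which rests on the H3K27ac peaks they were chosen by. For KO2 alone Nfam1 ranked 1, Clasrp 3, Dab2ip 5 and Zfp706 54. For KO1 alone Zfp706 ranked 4, Clasrp 26, Dab2ip 46 and Nfam1 55.

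**Figure D1:**
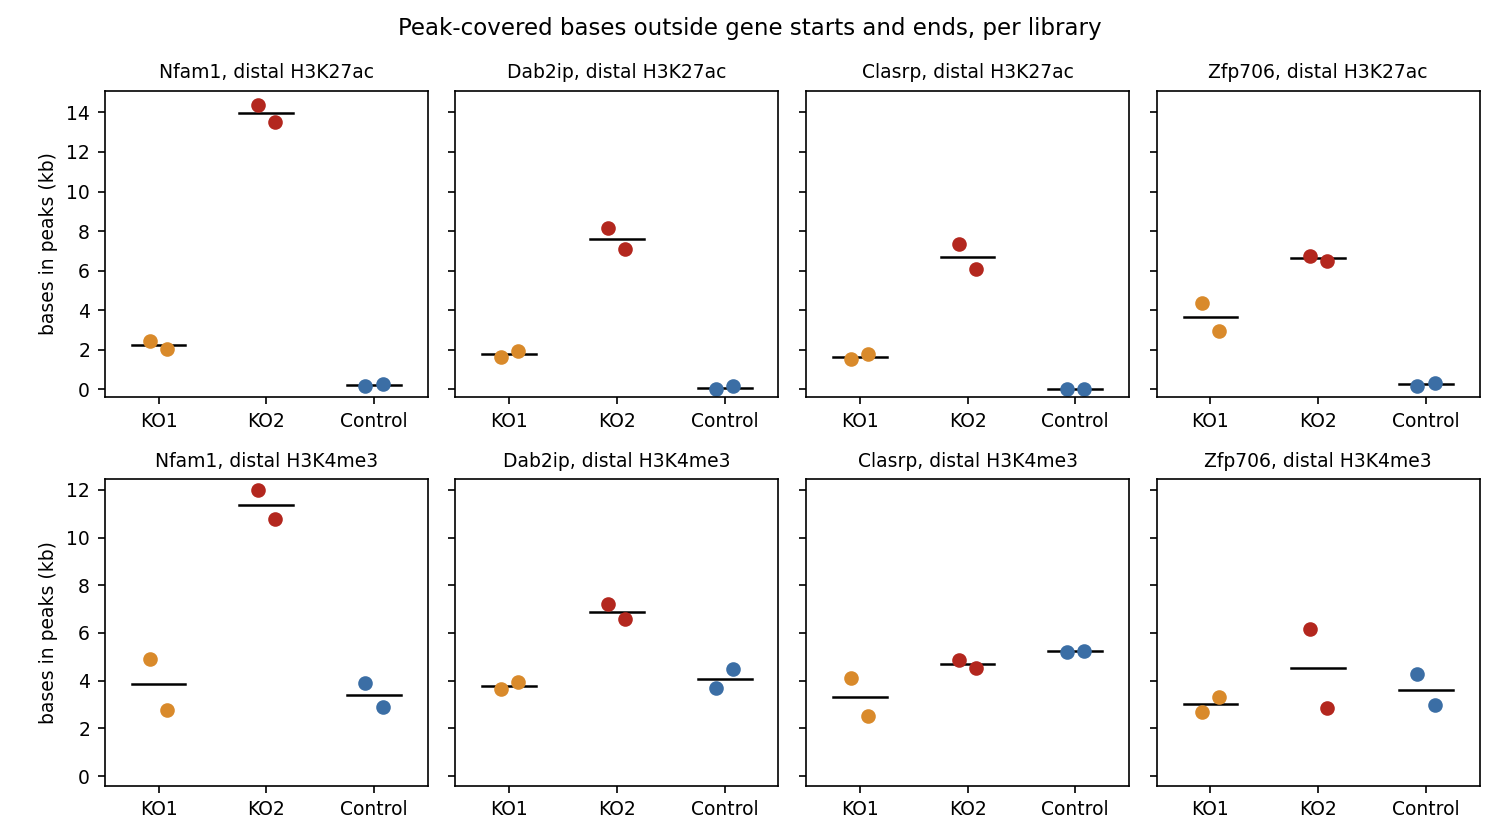
Distal bases under peaks (kb, linear axes) for each gene and library: H3K27ac in the upper row and H3K4me3 in the lower row, with KO1, KO2 and Control from left to right. Points are the 2 libraries of a genotype and bars their mean. H3K27ac of both KO2 libraries lies above 6 kb at every gene and above 13 kb at Nfam1. H3K4me3 stands higher in KO2 at Nfam1 and Dab2ip, while at Clasrp the Control libraries are highest.

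Distal H3K4me3, counted in the same way, was tested in 9335 genes, and the 4 genes all passed the filter on low values. Nfam1 rose in KO2 to 11991 and 10772 bp, against 3883 and 2903 bp in Control, and had 4917 and 2769 bp in KO1. Both KO2 libraries were above all others, and the KO1 libraries lay on either side of the Control range. On the log2 scale the difference was 1.62 ± 0.25 for KO2 against Control (SE, limma adjusted p = 6.76e-04) and 0.12 ± 0.25 for KO1 against Control (adjusted p = 0.721). Nfam1 was also called higher for both lines together (0.87 ± 0.21, adjusted p = 0.00788), a call that was lost without Control replicate 2 (adjusted p = 0.078).

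Dab2ip rose in KO2 to 7221 and 6574 bp of distal H3K4me3, against 3687 and 4473 bp in Control, and had 3648 and 3940 bp in KO1. The KO2 libraries did not overlap the others, and the KO1 libraries overlapped Control. The log2 difference was 0.70 ± 0.18 for KO2 against Control (limma adjusted p = 0.0102) and -0.09 ± 0.18 for KO1 (adjusted p = 0.727). The KO2 call was lost without Control replicate 1 (adjusted p = 0.121) and with only peaks of −log10 q of at least 5 (adjusted p = 0.119).

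Clasrp had 4097 and 2530 bp of distal H3K4me3 in KO1 and 4881 and 4521 bp in KO2, against 5212 and 5244 bp in Control. All 4 knockout libraries were below both Control libraries, but neither KO1 (-0.62 ± 0.22, limma adjusted p = 0.0523) nor KO2 (-0.14 ± 0.22, adjusted p = 0.625) passed the test. Zfp706 had 2708 and 3299 bp in KO1 and 6182 and 2872 bp in KO2, against 4292 and 2963 bp in Control, with the groups overlapping (limma adjusted p = 0.596 for KO1 and 0.579 for KO2). Quantile normalization and centring by chromosome turned the KO2 difference of Clasrp to 0.38 and 0.01, and brought Zfp706 past the threshold in KO2 (0.72 and 0.63, limma adjusted p = 0.0203 and 0.0299). Clasrp also passed as lower in KO1 when KO1 replicate 1, KO2 replicate 1 or KO2 replicate 2 was left out (limma adjusted p = 0.0339, 0.0275 and 0.0301), and Zfp706 passed as higher in KO2 without KO2 replicate 2 (adjusted p = 0.0383).

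Distal H3K4me3 was lower in the knockouts at most genes, so 2 of 4 genes called higher in KO2 stand beside a background of 7.46% called higher and 41.6% called lower. For both lines together 1 of 4 was called higher, against 5.61% higher and 44.1% lower in the background. Dab2ip (0.30, limma adjusted p = 0.132) also passed as higher for both lines after quantile normalization (0.81, adjusted p = 6.54e-04), after centring by chromosome (0.95, adjusted p = 8.11e-05) and with no bases left out (0.32, adjusted p = 0.0166). In KO1 none of the 4 was called, against 2.88% higher and 31.5% lower. The median difference over all tested genes was -0.38 in KO1 and -0.41 in KO2. Quantile normalization moved these medians to 0.05 and 0.06 and the KO2 calls to 2569 higher and 2336 lower, against 696 and 3880 without it. Nfam1 and Dab2ip remained called higher in KO2 under it and under centring by chromosome. In KO1 the first brought Nfam1 past the threshold (0.58, limma adjusted p = 0.0431), and the second brought Dab2ip past it (0.50, adjusted p = 0.0276). The lines differed from each other at Nfam1 (KO2 minus KO1, 1.5 ± 0.25, limma adjusted p = 0.00754) and at Dab2ip (0.78 ± 0.18, adjusted p = 0.0219), among 5.45% of genes called higher in KO2 than in KO1. Whether the level of the mark or the number of bases past the peak threshold changed cannot be told apart in peak lists.

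Regions with an H3K27ac peak in both KO2 libraries and in neither Control library made up 11 of 20 at Nfam1, 10 of 17 at Dab2ip, 11 of 32 at Clasrp and 10 of 26 at Zfp706. Over all H3K27ac regions of the series the share was 24.2%. Regions with a peak in all 4 knockout libraries and in neither Control library numbered 0, 3, 3 and 5 in the same order, and made up 3.54% of all regions. These counts restate what the genes were chosen for.

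At Nfam1, 14 of the 20 acetylated regions formed a stretch of 19.1 kb (chr15:83037961-83057035) upstream of the gene, 5 lay inside the gene and 1 in the neighbouring gene Tcf20. The stretch begins 4.6 kb upstream of the first Nfam1 start, within the end of Gm32620, and runs into sequence without a RefSeq gene. The next annotated coding start on its far side, that of Serhl, lies 43.2 kb away. Bases under H3K27ac peaks in this stretch were 2444 and 2061 in KO1 and 13041 and 12828 in KO2, against 179 and 249 in Control. H3K4me3 peaks covered 3935 and 2369 of its bases in KO1 and 10956 and 9775 in KO2, against 3016 and 2000 in Control. Both marks were thus widest in KO2, and the H3K4me3 of KO1 and Control overlapped.

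The widest Nfam1 region, 2.82 kb at chr15:83042930-83045749 and centred 10.9 kb upstream, had H3K27ac peaks in every knockout library. Its peaks reached the authors' fold enrichment of 7.42 and 8.83 in KO1, 12.1 and 15.2 in KO2, and 5.43 in 1 Control library, with no peak in the other. In the KO2 lists these peaks exceeded 90.2% and 94.6% of all peaks of the same list. The H3K4me3 region at the same place had peaks in all 6 libraries, covering 1926 and 1836 bp in KO1 and 3149 and 3135 bp in KO2, against 2081 and 1480 bp in Control. Several regions on either side were acetylated mainly in KO2, such as chr15:83049663-83052388, which held 0 and 150 bp in KO1 and 2504 and 2615 bp in KO2, against 0 in both Control libraries.

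The starts of Nfam1 themselves carried no H3K27ac peak within 2 kb in any library, at any of the 3 annotated starts. H3K4me3 covered 0% of the window at the first start in both KO1 libraries and 4.02% and 3.75% in KO2, against 5.82% and 0% in Control. The other starts had no H3K4me3 peak within 2 kb. Nfam1 therefore fell below the 5% mean needed for the promoter test. Inside the gene, 5 H3K27ac regions within 2.4 kb (chr15:83007471-83009872) had peaks in KO2 alone, over 1198 and 706 bp.

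Nfam1 is best known in blood cells, so markers of blood cells were read in these stem cell libraries. Of 9 such genes, 7 (Ptprc, Cd79a, Cd79b, Itgam, Csf1r, Fcer1g and Tyrobp) had no peak of either mark in the promoter window in any library. Spi1 and Laptm5 carried the rest, and the mean H3K27ac coverage over the 9 was 0.694% to 2.82% in KO1 and 6.97% to 8.33% in KO2, against 2.28% to 2.36% in Control. At Laptm5 it was 8.97% and 0% in KO1 and 38.8% and 39.7% in KO2, against 0% in both Control libraries. At Spi1 it was 16.4% and 6.25% in KO1 and 36.1% and 23.1% in KO2, against 21.2% and 20.5% in Control. H3K4me3 at Laptm5 covered 21% and 22.9% in KO1 and 43% and 41.3% in KO2, against 56.8% and 56.5% in Control. H3K4me3 at Spi1 covered 10.2% and 6.55% in KO1 and 25.5% and 23.9% in KO2, against 4.82% and 11.8% in Control. Mean H3K27ac coverage of the 14 embryonic stem cell markers was likewise higher in KO2. It was 44% to 46% in KO1 and 70.7% to 72.6% in KO2, against 44.7% to 47.1% in Control. The part of these differences in the Nfam1 result was not tested.

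**Figure D2:**
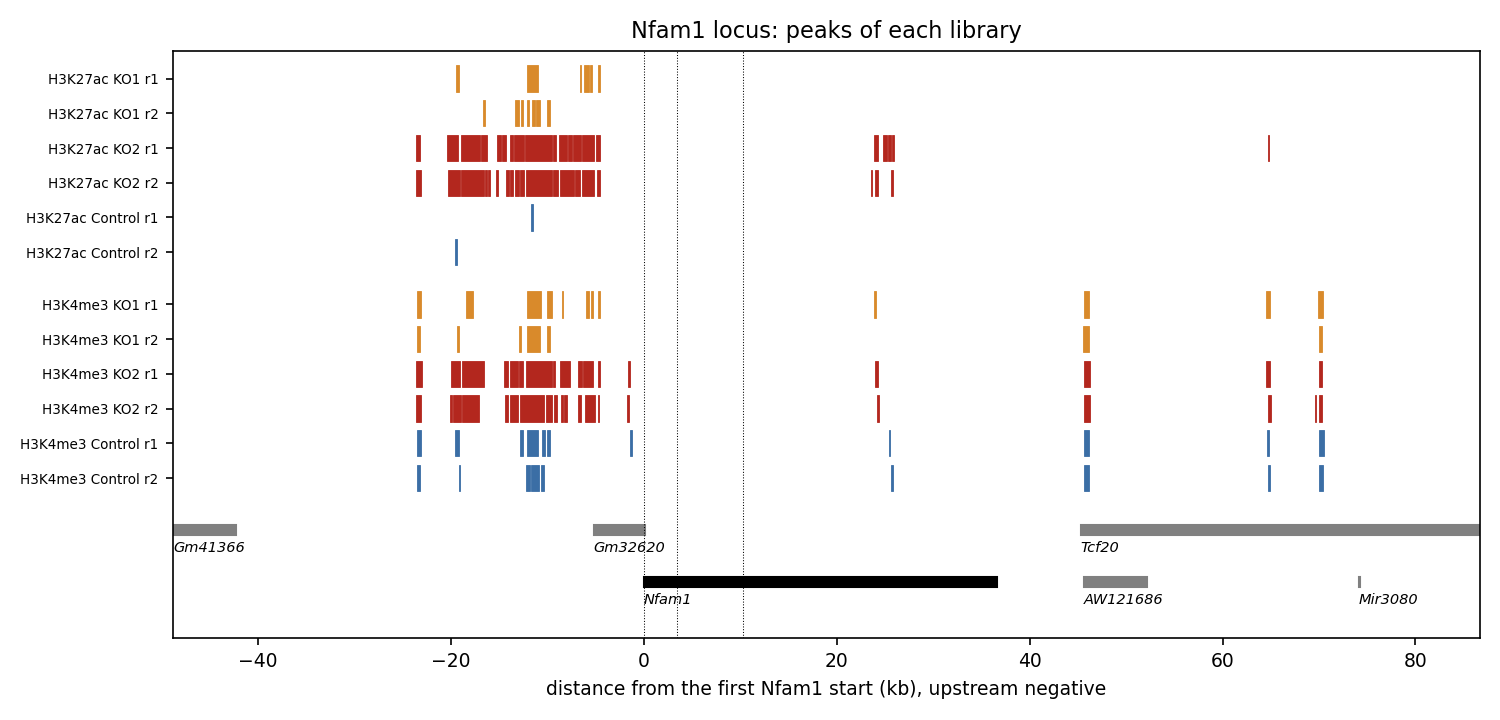
Peaks of each library (rows, KO1, KO2 and Control from top to bottom within each mark) over the Nfam1 locus, by distance from the first Nfam1 start in kb, with RefSeq genes below and annotated Nfam1 starts as dotted lines. In the stretch of 19.1 kb upstream of the gene, H3K27ac peaks cover 13041 and 12828 bp in KO2, against 179 and 249 bp in Control, where each library has 1 peak.

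At Dab2ip, a gene of 172.5 kb, 13 of the 17 acetylated regions were spread through the gene body. Another 3 lay outside any RefSeq gene at chr2:35508386-35511177, 72.0 to 74.0 kb upstream of the main start, and held H3K27ac over 0 and 249 bp in KO1 and 1889 and 1725 bp in KO2, against 0 in both Control libraries. The widest, 2.44 kb at chr2:35612969-35615403 and 31.3 kb past the main start, held H3K27ac peaks over 1023 and 967 bp in KO1 and 2130 and 2009 bp in KO2, against 0 in both Control libraries. All 4 knockout libraries had peaks there, of the authors' fold 6.39 and 6.69 in KO1 and 11.5 and 9.64 in KO2. Another, at chr2:35679743-35681787, held 618 and 150 bp in KO1 and 1433 and 1540 bp in KO2, against 0 in both Control libraries. Another region with peaks in all knockout libraries lay 1 kb upstream of the main start and was 0.39 kb wide.

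The 4 annotated starts of Dab2ip differed in H3K27ac. Within 2 kb of the main start, H3K27ac covered 6.15% and 5.37% in KO1 and 6.97% and 14% in KO2, against 0% in both Control libraries. At the internal start at base 35691994, whose sequence is printed above, H3K27ac covered 16.3% and 9.75% in KO1 and 45.1% and 37.3% in KO2, against 0% and 3.75% in Control. H3K4me3 around that start covered 27.2% and 29.1% in KO1 and 40.2% and 43.1% in KO2, against 24.9% and 22.4% in Control. The starts at 35558458 and 35621981 had no H3K27ac peak in any library. The CpG-rich main start was under H3K4me3 in every genotype, with 31.5% and 28.1% covered in KO1 and 37.2% and 28.8% in KO2, against 33.9% and 29.4% in Control.

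**Figure D3:**
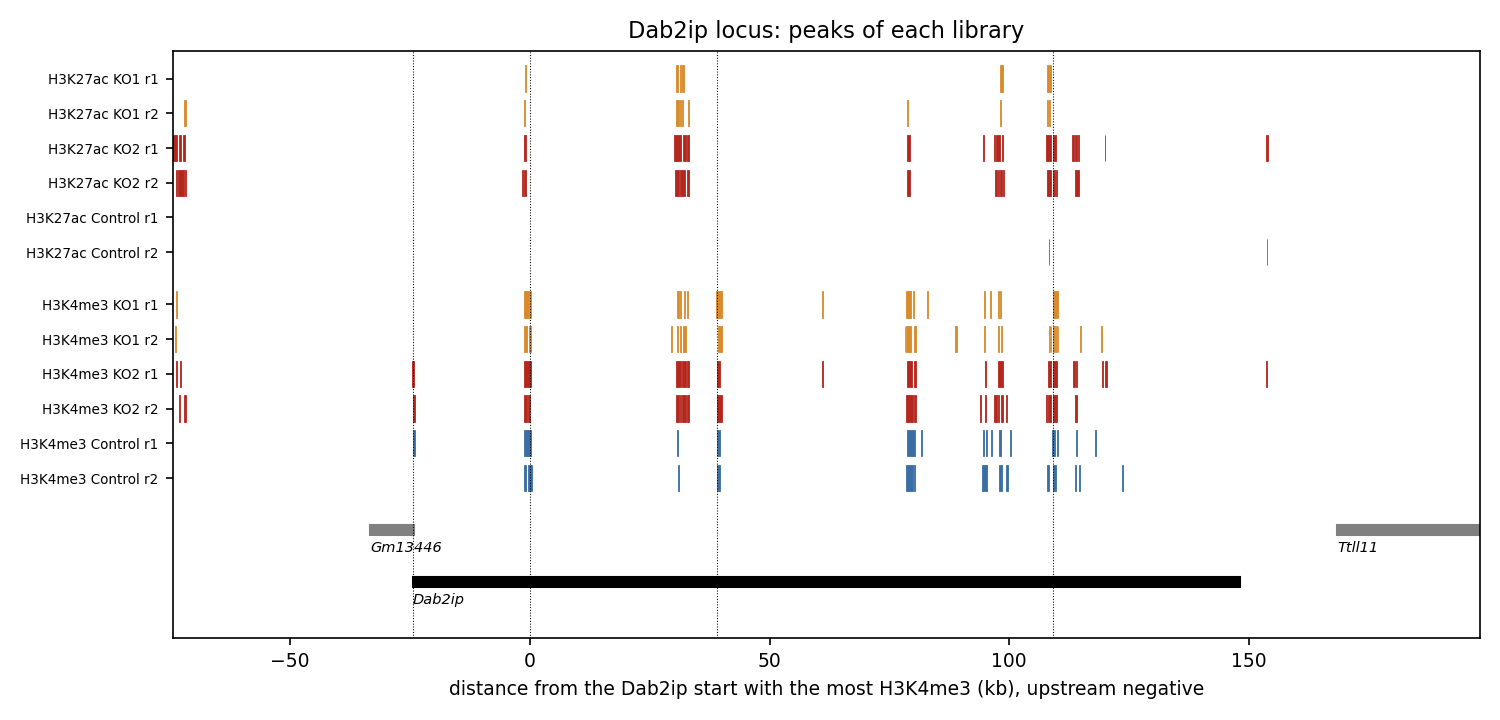
Peaks of each library over the Dab2ip locus, drawn as for Nfam1, by distance in kb from the main Dab2ip start. All 13 H3K27ac regions of the gene body have a KO2 peak and 6 of them also a KO1 peak, and the Control libraries have 0 and 2 H3K27ac peaks in the locus.

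At Clasrp, 11 regions had H3K27ac peaks in both KO2 libraries and no Control library. Of these 6 lay in the body of the neighbouring gene Relb, which encodes a subunit of NF-kB, 2 in Gemin7, 1 in Zfp296 and 2 in no RefSeq gene. The region at chr7:19608569-19611110, near the lower-coordinate end of Relb and 5.5 kb upstream of Clasrp, held H3K27ac over 804 and 1250 bp in KO1 and 2185 and 2084 bp in KO2, against 0 in both Control libraries. The region at chr7:19623294-19625249 held 158 and 178 bp in KO1 and 1832 and 1476 bp in KO2, again against 0 in Control. A region at the upper-coordinate end of Relb, chr7:19629006-19629429, had peaks in all 6 libraries, of 348 and 364 bp in KO1 and 409 and 424 bp in KO2, against 332 and 362 bp in Control. All 3 regions gained in both knockout lines at this locus lay inside Relb and none inside Clasrp.

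Other neighbours of Clasrp also carried more H3K27ac in KO2. From Gemin7 to Zfp296 (chr7:19568787-19578014), it covered 1112 and 2168 bp in KO1 and 4696 and 4944 bp in KO2, against 1021 and 1386 bp in Control. In the promoter window of Gemin7, a component of the SMN complex that assembles spliceosomal snRNPs, H3K27ac covered 27.8% and 46.4% in KO1 and 74.4% and 57.5% in KO2, against 25.5% and 34.6% in Control. In that of Zfp296, a zinc finger gene active in embryonic stem cells, it covered 1.35% and 7.8% in KO1 and 20.2% and 40.8% in KO2, against 0.825% and 0% in Control. At Clasrp itself it covered 8.92% and 11.3% in KO1 and 16.4% and 26.4% in KO2, against 7.72% and 10.3% in Control. KO2 was highest in all these windows, and KO1 and Control overlapped at Gemin7 and Clasrp.

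At Zfp706 the regions with peaks in all 4 knockout libraries and none in Control lay on both sides of the gene, 4 at lower and 1 at higher coordinates. The region at chr15:36990637-36991776, with no RefSeq gene, held H3K27ac over 714 and 642 bp in KO1 and 1010 and 836 bp in KO2, against 0 in both Control libraries. The region at chr15:37010942-37011330 beyond the neighbouring gene LOC115488529, held 301 and 250 bp in KO1 and 279 and 299 bp in KO2, against 0 in Control. At this second region KO1 and KO2 overlapped, unlike at most regions of the other loci. A group of 11 regions over 14.1 kb at the far side, chr15:36960187-36974292, held 1616 and 818 bp in KO1 and 2724 and 3059 bp in KO2, against 0 in both Control libraries.

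Zfp706 and LOC115488529 overlap at 1 end, and the area was acetylated in all genotypes. The region chr15:37005980-37007342, inside both genes, held 762 and 561 bp in KO1 and 1237 and 1311 bp in KO2, against 864 and 811 bp in Control. The adjoining region chr15:37007552-37010400, which overlaps LOC115488529 alone, held 1724 and 1334 bp in KO1 and 2563 and 2326 bp in KO2, against 1191 and 1061 bp in Control. The main H3K4me3 region of Zfp706, chr15:37002022-37007364, held 4281 and 4270 bp in KO1 and 4368 and 4046 bp in KO2, against 5228 and 5328 bp in Control, so that every knockout library was below both Control libraries. H3K4me3 length was also lower on chromosome 15 as a whole, at 0.792 times Control in KO1 and 0.754 times in KO2. H3K4me3 regions with peaks in both Control libraries and in no knockout library numbered 3 of 122 in the 4 loci (2.46%). Over all H3K4me3 regions the share was 5.01%. All 3 were among the 29 regions of Zfp706, and their Control peaks had low values of the authors' fold, 2.77 to 4.3.

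**Figure D4:**
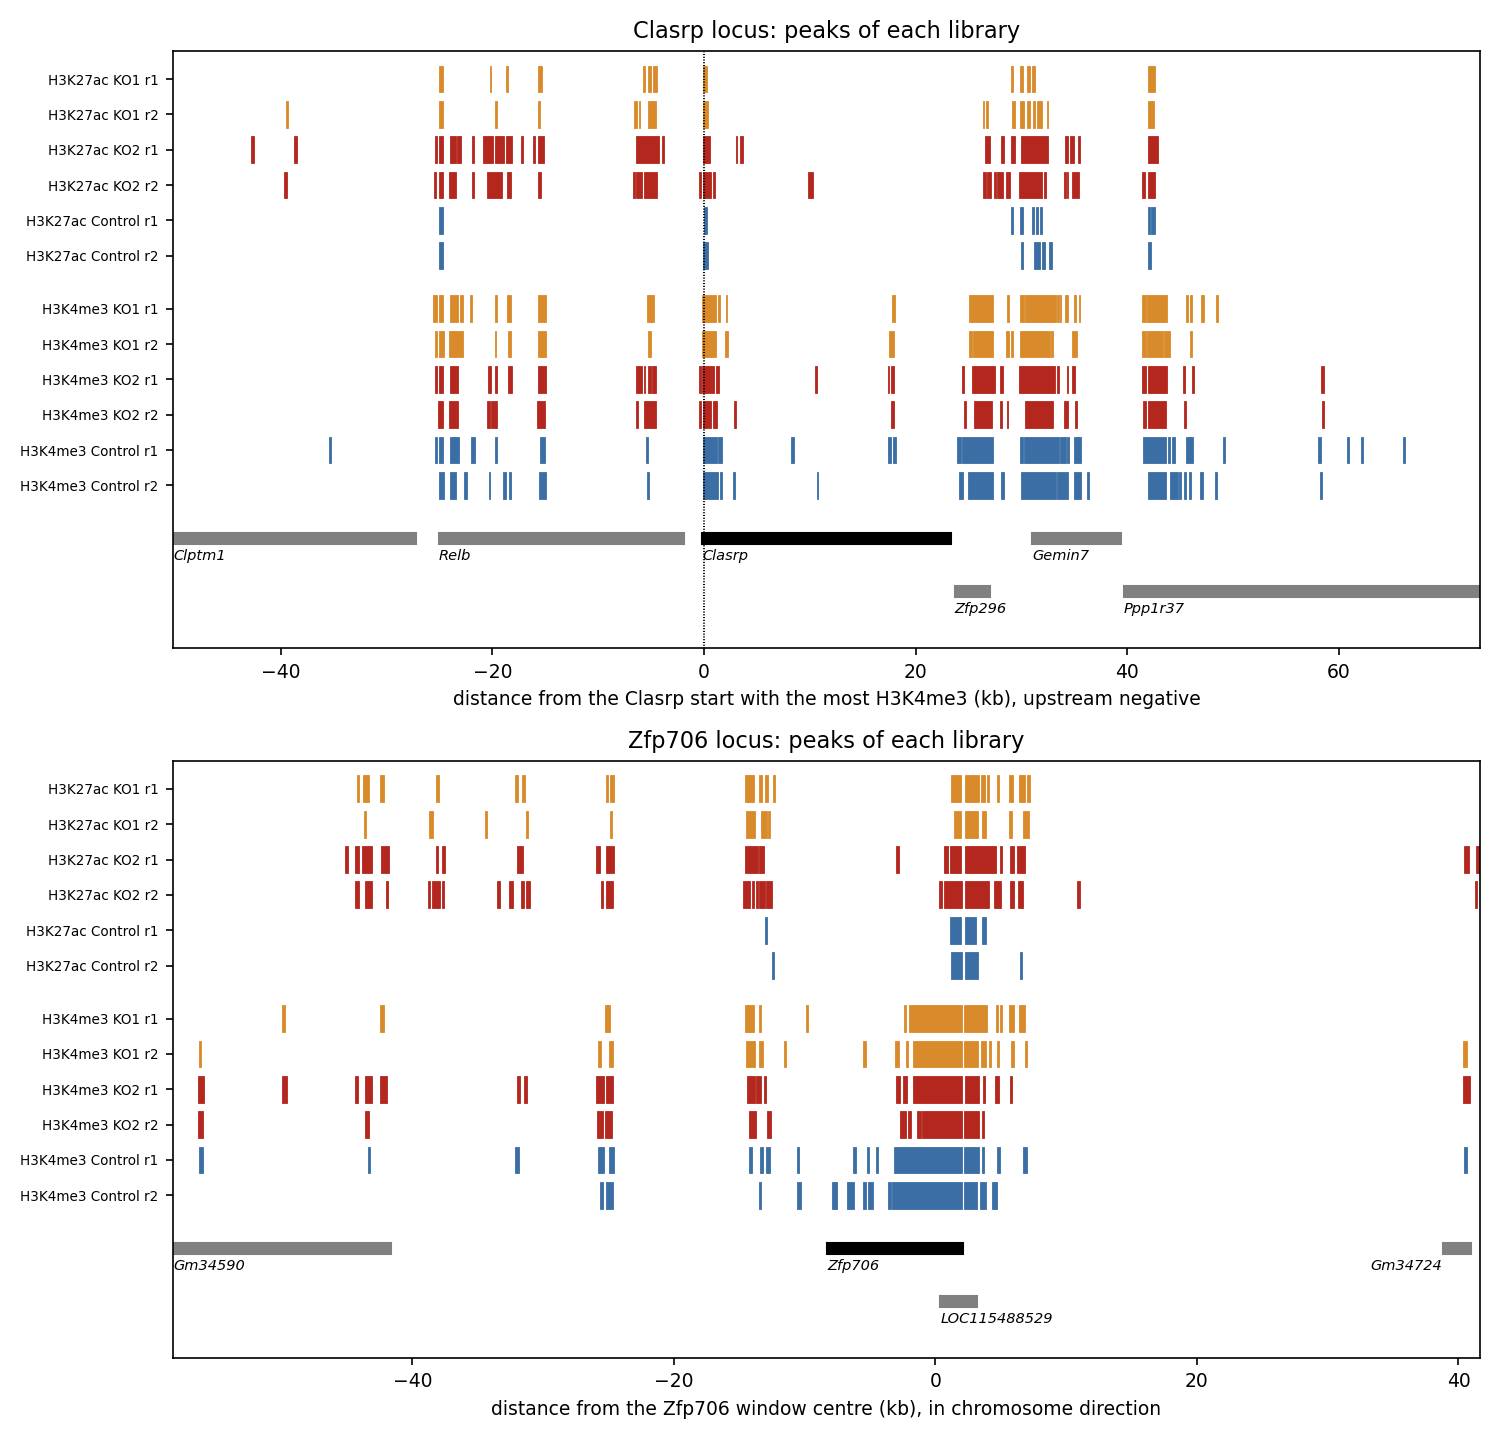
Peaks of each library over the Clasrp locus (upper panel) and the Zfp706 locus (lower panel), drawn as for Nfam1, by distance in kb from the Clasrp start or from the centre of the Zfp706 promoter window. Near Clasrp the 3 H3K27ac regions with peaks in all knockout libraries and no Control library lie over Relb, and near Zfp706 the 5 such regions lie on both sides of a block of H3K4me3 that all 6 libraries share.

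Promoter H3K4me3 was tested at 13517 genes as the percent of 4 kb around the start that lay under peaks. Genes without an annotated start, Zfp706, Relb, Ttll11 and LOC115488529 among them, took the window inside the gene with the most H3K4me3. None of the 3 genes tested was called, against 0.858% of genes called higher and 5.64% called lower for both lines together. The difference for both lines together was -0.244 ± 3.3 percentage points at Dab2ip (SE, limma adjusted p = 0.976), -7 ± 3.07 at Clasrp (adjusted p = 0.214) and -7.08 ± 2.74 at Zfp706 (adjusted p = 0.163). The Dab2ip window was that of the main start, which was picked by H3K4me3 in these same libraries, with Control and knockout means weighted equally. The internal start at base 35691994 was not tested. There H3K4me3 covered 27.2% and 29.1% in KO1 and 40.2% and 43.1% in KO2, against 24.9% and 22.4% in Control. Both KO2 libraries thus had more H3K4me3 there than at the main start (37.2% and 28.8%). At Clasrp H3K4me3 covered 35.3% and 32.8% in KO1 and 38.1% and 31.3% in KO2, against 42.4% and 40.3% in Control. At Zfp706 it covered 100% and 93.9% in KO1 and 92.1% and 85.7% in KO2, against 100% in both Control libraries. No rise above Control was therefore possible in that window. No coding neighbour with a tested promoter (Ttll11, Ppp1r37, Gemin7, Zfp296, Relb, Clptm1 and LOC115488529) was called for both lines together, with limma adjusted p between 0.632 and 0.994.

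H3K4me3 was then read at the H3K27ac regions themselves, as the percent of each region with 500 bp on each side that lay under H3K4me3 peaks. Of the 95 regions of the 4 loci, 72 had the mean coverage of 5% needed for the test. In KO2 against Control 7 of the 72 were called higher and 0 lower (limma, Benjamini-Hochberg adjusted p under 0.05 over 57974 regions), against 0.994% higher and 1.72% lower over all tested regions. Of those regions with H3K27ac peaks in both KO2 libraries and no Control library, 2.3% of 15409 were called higher. With the added 500 bp, neighbouring regions can overlap and share H3K4me3 peaks, so their calls are not independent. Several of the regions called at Nfam1 and both called at Dab2ip overlap in this way. A region can reach the 5% through KO2 alone, and 5 of the 72, with 2 of the 7 calls, had no H3K4me3 in any KO1 or Control library. The KO1 and Control libraries alone averaged 5% at 57 of the 72, of which 5 were called higher, against 0.533% of 53444 such regions in the genome, a restriction chosen after the values were seen. In KO1 no region was called anywhere in the genome by limma, though 9986 had an unadjusted p under 0.05.

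Of these 5 regions 3 lay in the stretch upstream of Nfam1. At chr15:83045807-83046899 H3K4me3 covered 10.2% and 22.6% in KO1 and 73.1% and 86.9% in KO2, against 28% and 12.3% in Control (KO2 minus Control 59.8 ± 9.69 percentage points, SE, limma adjusted p = 0.0461). At chr15:83049663-83052388 it covered 18.9% and 6.04% in KO1 and 75.4% and 62.7% in KO2, against 9.55% and 4.13% in Control (62.2 ± 8.54, limma adjusted p = 0.0419). At both, KO2 stood apart from KO1 and Control. The remaining region, chr15:83038570-83039826, had 28% and 0% in KO1 and 67.6% and 60.5% in KO2, against 0% in both Control libraries (64 ± 10.6, limma adjusted p = 0.0479). Outside KO2 it reached the 5% through KO1 replicate 1 alone. The 2 called regions with no H3K4me3 outside KO2 also lay in this stretch, and are given as a description only: chr15:83046942-83047309 had 78.1% and 85.2% in KO2 and chr15:83047416-83047663 had 56.5% and 55.4%. The widest H3K27ac region, chr15:83042930-83045749, had 50.4% and 45.2% in KO1 and 84.2% and 87.5% in KO2, against 54.1% and 38.7% in Control, and just missed the threshold (limma adjusted p = 0.0536).

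The other 2 of the 5 regions lay within Dab2ip. At chr2:35612969-35615403 H3K4me3 covered 30.8% and 29.4% in KO1 and 62% and 55.9% in KO2, against 4.95% and 4.6% in Control (KO2 minus Control 54.2 ± 6.78 points, limma adjusted p = 0.0419). At the adjoining chr2:35615554-35616132 it covered 25.1% and 17.7% in KO1 and 52.8% and 47.8% in KO2, against 0% in both Control libraries (50.3 ± 6.75, limma adjusted p = 0.0419). Here both KO1 libraries also exceeded both Control libraries, though KO1 did not pass (25.3 ± 6.78 and 21.4 ± 6.75, limma adjusted p = 0.156 and 0.199).

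No region was called at Clasrp or Zfp706. The nearest at Clasrp was chr7:19608569-19611110 inside Relb, where H3K4me3 covered 21.3% and 7.91% in KO1 and 42.5% and 39% in KO2, against 4.23% and 4.88% in Control (36.2 ± 7.2 points, limma adjusted p = 0.0607). All 7 region calls stood close to the threshold. None held without the filter on low values (limma adjusted p from 0.0511 to 0.0581) or without any 1 of the KO1 or Control libraries (0.11 to 0.192), while all 7 differences stayed positive. For KO2 minus KO1 no region was called in the genome, though 10769 had an unadjusted p under 0.05.

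**Figure D5:**
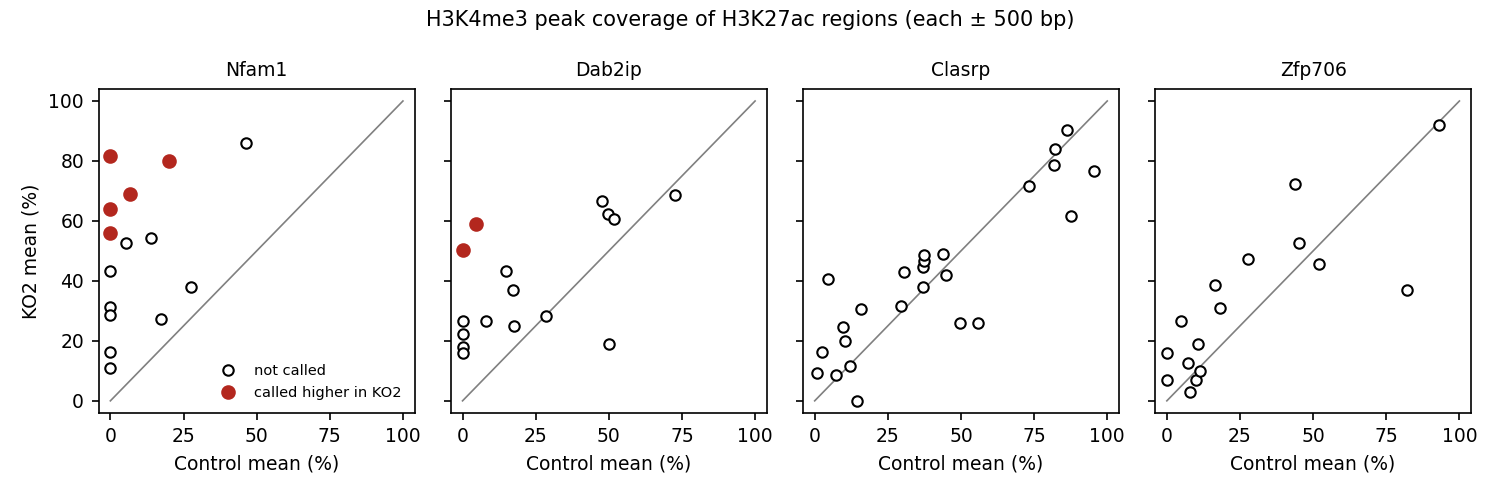
Mean H3K4me3 coverage (%) of each tested H3K27ac region, with KO2 on the vertical and Control on the horizontal axis, for each locus. Filled points are the 5 regions at Nfam1 and 2 at Dab2ip called higher in KO2, of which 2 at Nfam1 had no H3K4me3 in KO1 or Control, and the line marks equal coverage. At Clasrp most regions lie near the line.

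H3K4me3 regions with peaks in both KO2 libraries and no Control library numbered 10 of 20 at Nfam1, 3 of 36 at Dab2ip, 2 of 37 at Clasrp and 0 of 29 at Zfp706. Over all H3K4me3 regions the share was 4.15%. At the region chr2:35614547-35615402 of Dab2ip, all 4 knockout libraries had an H3K4me3 peak, of 175 and 470 bp in KO1 and 792 and 791 bp in KO2, and neither Control library had one. It was the only such region of the 122 in the 4 loci (0.82%), near the share of 0.862% over all H3K4me3 regions.

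The genes whose distal lengths were most like those of each gene over the 12 libraries were found among coding genes on other chromosomes, by the root mean square difference of log2(bp + 500). For Nfam1 they were Tns1, which encodes the adhesion protein tensin 1 (0.36), Cuedc1 (0.47) and Xxylt1, a xylosyltransferase gene (0.48), against a median of 2.71 over all such genes. For Dab2ip they were Tecpr2 (0.24), Clasrp (0.34) and Zfp296 (0.34), of which the last 2 share a locus. For Clasrp they were Dab2ip (0.34), Tecpr2 (0.41) and Tomm6, a subunit of the mitochondrial import pore (0.41). For Zfp706 they were Ubtd1 (0.38), Bcas3 (0.41) and Zfp60 (0.43). Tns1 held 2548 and 1713 bp of distal H3K27ac in KO1 and 12383 and 11195 bp in KO2, against 341 and 725 bp in Control.

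The same measures were read in lists of genes related by function to the 4 genes. Whether a list shares the pattern of the 4 genes was not tested. Of 19 ITAM receptors and signalling genes, 8 were tested for distal H3K27ac in both lines together, with 6 higher and 0 lower (median difference 0.62 against 0.79 over all genes). Beside these and the other list counts below stand the shares of all tested genes, 78.1% called higher for distal H3K27ac, and 5.61% higher and 44.1% lower for distal H3K4me3. Blnk, a B-cell adaptor, rose to 2999 and 1711 bp in KO1 and 4383 and 3590 bp in KO2, against 976 and 539 bp in Control. For distal H3K4me3, 1 of 9 rose (Blnk, 0.96 ± 0.20, limma adjusted p = 0.00299) and 4 fell, among them Nfat5 (-1.52 ± 0.23, adjusted p = 6.72e-04). Both shares lie near the background for H3K27ac and for lower H3K4me3.

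Of 11 genes listed as Ras GTPase-activating proteins or as related to them (Iqgap1 and Dab2), 4 were tested for distal H3K27ac. All 4 of these were higher (median 1.37), beside 78.1% of all genes. Rasal1 held 668 and 556 bp in KO1 and 3897 and 3158 bp in KO2, and was listed at 0 in both Control libraries. Of 6 tested for distal H3K4me3, 2 rose and 0 fell: Rasa4 (1.22 ± 0.25, limma adjusted p = 0.00302) and Nf1, which encodes neurofibromin (1.07 ± 0.20, adjusted p = 0.00174). Of 19 CLK and SRPK kinases and SR proteins, 8 of 10 tested were higher in distal H3K27ac, and for H3K4me3 1 of 14 rose and 5 fell, with the largest drop at the splicing factor gene Srsf4 (-1.54 ± 0.16, limma adjusted p = 1.47e-04). Of 19 genes of the exit from naive pluripotency, all 10 tested were higher in distal H3K27ac, beside 78.1% of all genes. For distal H3K4me3 10 of the 15 tested fell and 0 rose, beside 44.1% and 5.61% of all genes. Tcf7l1, a transcription factor of that exit, held 17499 and 18127 bp of distal H3K4me3 in KO1 and 25911 and 17378 bp in KO2, against 49932 and 41745 bp in Control (-1.21 ± 0.16, limma adjusted p = 3.70e-04). Promoter H3K4me3 was called at 0 of 9, 0 of 10 and 0 of 18 tested genes of the first lists for both lines together, and fell at 2 of 18 of the last, among them Grb2, an adaptor of receptor kinases (-19.1 ± 3.75 points, limma adjusted p = 0.0305). Beside these counts stand 0.858% of all tested promoters called higher and 5.64% called lower.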

How the data were processed

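Per the labels, H3K27ac and H3K4me3 were profiled by chromatin immunoprecipitation with spike-in chromatin and antibody from Active Motif. The 6 input samples were not analysed here. Reads were handled with CASAVA, Trimmomatic 0.38 and Bowtie 1.2.2 on mm10, and peaks were called with MACS2 (version not stated), per the submitters' processing notes. The authors' lists are per library and hold peaks with q under 0.01. The deposited columns give a fold enrichment (ratio to local background), a −log10 p and a −log10 q for every peak, all from the authors. These belong to 1 list each and were used within it. The sources used here name no scaling by the spike-in, and a library with more reads can yield more and wider peaks.

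Genes and starts came from RefSeq (GRCm38.p6). Of 21887 coding genes 17492 had an annotated start, and the others, Zfp706, Relb, Ttll11 and LOC115488529 among them, took the 4-kb window inside the gene with the most H3K4me3. Regions are peaks joined where they overlap by at least 1 bp. Distal lengths were fitted as log2(bp + 500) where they averaged 1000 bp or more, and coverages in percent where they averaged 5% or more, using limma 3.58.1 (lmFit, eBayes with trend) in R 4.3.3 on 6 libraries per mark, with Benjamini-Hochberg adjustment over all features of a contrast at 0.05. The measures were computed in Python 3.11.15 (pandas 2.3.3, numpy 2.4.6) and the fits were tested on simulated data. Neighbouring genes share bases and are not independent, and the same holds for neighbouring H3K27ac regions with 500 bp added.

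The genes and lists were chosen with earlier results of these data known. Named are the 4 genes, RefSeq genes of their loci, for each the 3 most like coding genes on other chromosomes, and from each list up to 2 called genes per direction. The regions described in full were chosen after their values were seen. 1 marker gene of the lists is not reported here.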

Additional observations from a re-analysis of the deposited data

Results flagged for a closer look

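The lines' effects on distal H3K4me3 differed at 2 of the 4 genes, by the test of KO2 minus KO1 itself. Of all 9335 tested genes, 509 (5.45%) were called higher in KO2 than in KO1 and 659 lower. At Nfam1 the difference was 1.5 ± 0.25 on the log2 scale (SE, limma adjusted p = 0.00754), with both KO2 libraries above both KO1 libraries. At Dab2ip it was 0.78 ± 0.18 (limma adjusted p = 0.0219), again with both KO2 libraries above both KO1 libraries. At Clasrp and Zfp706 it did not pass the threshold (0.48 ± 0.22 and 0.44 ± 0.31, limma adjusted p = 0.181 and 0.382). The H3K27ac lists of KO2 also covered more of the whole genome than those of KO1. H3K4me3 length on the autosomes was 0.798 times Control in both lines. The part of these extents in the difference was not tested.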

How the results depend on the processing

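Called higher in KO2 for distal H3K4me3, Nfam1 kept its direction and its side of the threshold under every alternative run (1.44 to 1.8 on leaving out 1 library each). Counts over all genes moved more. For distal H3K4me3 in both lines together, quantile normalization gave 2428 genes higher and 2182 lower, centring by chromosome 2641 and 2082, and a locus of 25 kb on each side 334 higher. For KO2 quantile normalization gave 2569 higher and 2336 lower, centring 2709 and 2317, and no filter on low values 1081 higher. Distal H3K27ac was called higher at 1177 genes after quantile normalization, 2349 with an equal number of peaks per list and 7299 without the filter. Promoter H3K4me3 in both lines together gave 272 higher and 345 lower after quantile normalization, 397 and 412 after centring, 72 and 425 with peaks of −log10 q of at least 5, and 0 and 0 in a window of 1 kb on each side. H3K4me3 at H3K27ac regions in KO2 gave 998 higher after quantile normalization, 1935 higher and 2350 lower after centring, 0 and 0 without the filter, and 496 lower without the 500 bp on each side.

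Gained H3K27ac regions of the 4 loci numbered 3 where peaks had to cover 0.5 of the region, 7 with peaks of −log10 q of at least 5 and 4 with equal numbers of peaks, and 11 to 18 on leaving out 1 library. H3K4me3 regions of the loci lost in the knockouts numbered 0 with the stricter peaks, 0 with equal numbers and 1 with peaks within 500 bp joined, and 3 to 16 on leaving out 1 library. Leaving out 1 library gave 278 to 747 genes higher and 2260 to 5283 lower for distal H3K4me3 in both lines, 413 to 869 and 2499 to 4966 in KO2, 0 to 45 and 3 to 563 for promoter H3K4me3, and 0 to 2621 and 0 to 1647 regions in KO2. The region counts were 0 without either KO1 or either Control library. The lowest promoter counts came without Control replicate 1 (0 higher and 3 lower) and Control replicate 2 (0 and 7).

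Differences that changed sign were all of comparisons that had not passed. Dab2ip in KO1 went to 0.39 after quantile normalization, 0.50 after centring, 0.05 with equal numbers of peaks and 0.02 with no bases left out, and ranged from -0.21 to 0.04 on leaving out 1 library. Nfam1 in KO1 ranged from -0.24 to 0.49. Clasrp went to 0.13 for both lines after quantile normalization, and in KO2 to 0.38 after it, 0.01 after centring, 0.06 with the stricter peaks, 0.18 with equal numbers and 0.00 with 25 kb. Zfp706 for both lines went to 0.48, 0.37, 0.07 and 0.14 under quantile normalization, centring, stricter peaks and equal numbers, and ranged from -0.25 to 0.25. In KO1 it went to 0.24 and 0.12 under the first 2 of these and ranged from -0.46 to 0.01, and in KO2 it went to -0.16 with 25 kb and -0.11 with no bases left out and ranged from -0.27 to 0.71. For promoter H3K4me3, Dab2ip went to 1.97 points after quantile normalization and 3.22 after centring and ranged from -2.49 to 2.01, and Clasrp went to 1.42 in the 1-kb window. The cause of these changes was not tested.

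The labels share replicate numbers across genotypes but do not say that a number marks a shared day or batch, and with 2 numbers the correlations of same-numbered deviations, -0.02 to 0.05 over all pairs of genotypes and measures, gave no pairing. With the replicate block, 0 regions were called higher and 0 lower in KO2, so the 7 region calls were lost (limma adjusted p from 0.0717 to 0.0773), Clasrp passed as lower in KO1 (adjusted p = 0.0367), and no other call of the 4 genes against Control changed. Read totals are unknown, so what depth limits could not be stated.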
